A study of Mus musculus with 9 samples.

Results

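The 55 genes described here build ribosomes in the nucleolus: 8 encode RNA polymerase I and its initiation factors, 9 proteins of small nucleolar ribonucleoprotein particles (snoRNPs), 19 factors that assemble the small (40S) subunit, 15 factors that assemble the large (60S) subunit, and 4 abundant nucleolar proteins with several functions. They were chosen as a list of gene symbols of the GENCODE M21 annotation, by their known roles but with earlier results of these data known, and are 55 of 45321 annotated genes. All 55 had enough counts to be among the 14011 genes tested, and the lowest count of any of them in any library was 31. They lie on 19 chromosomes of GRCm38, with 8 of them on chromosome 11.

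RNA polymerase I transcribes the ribosomal RNA repeats into a long precursor. The transcription factor UBF (gene Ubtf) and the selectivity factor SL1 (of which TAF1B, gene Taf1b, is a subunit) mark the promoter, and RRN3 brings the polymerase to it. Box C/D and H/ACA snoRNPs then methylate and pseudouridylate the precursor, the small-subunit processome folds and cuts it, and separate sets of factors mature the 40S and 60S subunits and escort them to the cytoplasm. Resting T cells make few ribosomes and enlarge their nucleoli when activated, before they divide.

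RNA was sequenced from splenic CD4+ T cells of C57BL/6 mice, an inbred laboratory strain, isolated by negative selection so that no antibody bound them. Each culture first had 1 h of vehicle (DMSO) or of Compound 10 at 12.5 µM, which the series describes as an inhibitor of the transcription factor pair NFAT:AP-1. They were then left unstimulated, or stimulated for 2 h with 10 nM PMA, an activator of protein kinase C, and 1 µM ionomycin, which raises cell calcium and with PMA bypasses the T cell receptor. The 9 libraries form 4 groups: unstimulated vehicle (DMSO_US, 2 libraries), unstimulated compound 10 (Comp10_US, 2), stimulated vehicle (DMSO_PI, 2) and stimulated compound 10 (Comp10_PI, 3). Nothing in the labels tells if replicate libraries are from different mice or cultures. The p-values therefore reflect the spread between the samples sequenced, and that spread may be technical. Age and sex of the mice are not in the labels used here.

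Each library held 10669821 to 21852830 estimated counts, of which 9.17% to 33.6% were ribosomal RNA, nuclear and mitochondrial together, and the libraries numbered 2 of unstimulated and stimulated vehicle were the richest (33.6% and 19.5%). The unit of a level is CPM, the gene's count after scaling libraries to 1 common size. All 7 markers of CD4 T cells were detected in every library. Of the CD8 T cell markers, Cd8a was at 0 in 5 libraries and never above 0.349 CPM. Cd8b1 was detected in every library, at 4.43 to 7.31 CPM. Summed CD4 T cell markers were 628 to 735 CPM in unstimulated vehicle, 1012 to 1197 in unstimulated compound 10, 858 to 1052 in stimulated vehicle against 1477 to 1626 in stimulated compound 10, and 6 of the 7 were higher with compound 10 in stimulated cells. The 5 B cell markers summed to at most 59 CPM, the 5 markers of monocytes, macrophages and dendritic cells to 6.70, the 4 of neutrophils to 6.05 and the 4 of erythroid cells and platelets to 11.7. Of these lists 5, 1, 2 and 3 markers had enough counts to be tested. No tested marker among them passed for the compound in stimulated cells, which does not show them unchanged. The 4 natural killer cell markers summed to 13.8 to 24 CPM in stimulated vehicle against 30.0 to 42.6 in stimulated compound 10, with 2 of the 3 tested (Klrb1c and Klrd1) higher. The part of these markers in the results below was not tested. In RNA from bulk samples, fewer cells of a type and less RNA per cell cannot be told apart, and a CPM is a share of the RNA measured, not an amount per cell.

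Promoters of the members are shown first because the E-box CACGTG, a site bound by MYC and related proteins, is known from genes of ribosome production. RefSeq promoters (build GRCm38.p6, 250 bases before to 50 after the start) were at hand for 50 of the 55 members, all but Bop1, Rrp12, Fbl, Npm1 and Rrs1. CACGTG, a palindrome read the same on both strands, was in 11 of the 50 (22%): Imp4, Ltv1, Mybbp1a, Nle1, Nop2, Pes1, Rrn3, Tsr1, Utp18, Utp20 and Wdr43. It was in 7.15% of all 32851 promoters of the same length and in 11.9% of the 9477 genes tested that had one. The promoters printed are the 3 with CACGTG whose genes had the smallest p for compound 10 in stimulated cells, and that of Wdr3, which had the smallest p of those without it; each runs 5′ to 3′ on the strand of its gene, with CACGTG in capitals.
Pes1: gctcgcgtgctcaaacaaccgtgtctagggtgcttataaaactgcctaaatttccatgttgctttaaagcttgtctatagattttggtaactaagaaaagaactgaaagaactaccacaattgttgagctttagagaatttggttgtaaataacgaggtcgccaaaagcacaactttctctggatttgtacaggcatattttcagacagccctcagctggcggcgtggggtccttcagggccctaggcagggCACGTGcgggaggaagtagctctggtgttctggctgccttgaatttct
Wdr43: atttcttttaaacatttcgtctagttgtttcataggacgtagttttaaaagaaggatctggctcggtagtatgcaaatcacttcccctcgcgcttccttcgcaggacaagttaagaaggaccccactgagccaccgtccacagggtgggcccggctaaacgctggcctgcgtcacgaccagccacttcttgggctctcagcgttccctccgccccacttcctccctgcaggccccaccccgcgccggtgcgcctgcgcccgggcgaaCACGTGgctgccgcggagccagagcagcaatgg
Nop2: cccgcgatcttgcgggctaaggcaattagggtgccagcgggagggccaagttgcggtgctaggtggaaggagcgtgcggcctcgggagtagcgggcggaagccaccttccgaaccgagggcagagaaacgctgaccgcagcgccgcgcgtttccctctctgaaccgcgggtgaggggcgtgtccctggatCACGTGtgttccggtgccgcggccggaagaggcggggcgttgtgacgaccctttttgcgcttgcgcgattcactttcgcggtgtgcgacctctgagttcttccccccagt
Wdr3: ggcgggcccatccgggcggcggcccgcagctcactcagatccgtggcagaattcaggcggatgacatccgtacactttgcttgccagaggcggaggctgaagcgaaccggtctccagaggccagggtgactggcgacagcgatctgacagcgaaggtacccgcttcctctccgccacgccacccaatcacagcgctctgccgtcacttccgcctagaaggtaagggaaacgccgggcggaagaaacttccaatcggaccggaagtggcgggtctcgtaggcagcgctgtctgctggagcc
They cover chr11:3963725-3964024 on the plus strand, chr17:71615965-71616264 on the plus strand, chr6:125131633-125131932 on the plus strand and chr3:100162358-100162657 on the minus strand. The E-box starts 60 bases before the start of Nop2, and lies after the start in Pes1 and Wdr43. In the 100 bases before the start alone CACGTG was in 3 of the 50 member promoters (6%), against 3.17% of all promoters and 5.61% of those of genes tested, so the member share was then near that of genes tested. That window leaves out sites after the start, which Ltv1, Mybbp1a, Nle1, Tsr1 and Utp20 had as well as Pes1 and Wdr43.

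Of 3 other motifs searched on both strands, the AP-1 site TGANTCA was in 0 of the 50 member promoters, against 7.81% of all promoters and 5.92% of those of genes tested. The NFAT core GGAAAA was in 11 (22%), against 23.4% and 24%. The ETS site CCGGAAG was in 18 (36%), against 8.86% and 21.2%. GGAAAA and CCGGAAG cannot match at the same GGAA of a strand. A match describes the letters only and is not a measured binding site. Among the 11 members with CACGTG the median log2 fold change with stimulation in vehicle was 1.36, and among the 39 without it 1.33. For compound 10 in stimulated cells the medians were -0.74 and -0.70, with 7 of 11 and 23 of 39 members lower. These values are descriptions, and no test was made of them.

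The first comparison gives the response of unperturbed cells: stimulated against unstimulated vehicle. Ribosome biogenesis genes rose as a group: 47 of the 55 were higher and 1, Taf1b, was lower (edgeR quasi-likelihood test, Benjamini-Hochberg adjusted p under 0.05), against 14.4% of all genes tested higher and 13.8% lower (28.1% in all). The median log2 fold change of the members was 1.36, and that of all genes -0.05. Summed over the members, CPM was 4655 and 4428 in the unstimulated and 9686 and 8961 in the stimulated vehicle libraries. Leaving out the single most abundant gene, Npm1, the sums were 2438 and 2378 against 6108 and 6068. By role, 9 of 9 snoRNP genes, 18 of 19 genes of the small subunit, 14 of 15 of the large subunit, 3 of 4 of the nucleolar proteins and 3 of 8 of the polymerase I genes rose. The 7 members that did not pass were Polr1a, Polr1e, Rrn3, Ubtf, Ddx10, Bop1 and Npm1, with log2 fold changes of 0.21 to 0.68. Both stimulated libraries lay above both unstimulated ones for 53 members and below both for 1, against 29.3% and 34.1% of all genes.

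The second comparison is the one the series names, compound 10 against vehicle, in stimulated cells. Of the 55 members 33 were lower with the compound and 2, Ubtf and Taf1b, were higher (35 in all, against 23.1% of genes), against 11.4% of all genes tested lower and 11.7% higher. The median log2 fold change was -0.70, and that of all genes 0.00. All 3 compound libraries lay below both vehicle libraries for 44 members, which holds for 23.1% of all genes, and above both for 3 (24.2% of all genes). Summed CPM of the members was 6723, 6946 and 7043 in the compound libraries against 9686 and 8961 in vehicle. The vehicle libraries are the same as in the first comparison, so for each member the 2 changes share them and are given only side by side. In unstimulated cells 1 member was higher with the compound, Ubtf, and 1 was lower, Wdr3, against 4.45% and 2.91% of all genes (7.36% in all). The compound libraries lay above vehicle without overlap for 17 members and below it for 16, against 28.2% and 27.3% of all genes. The median log2 fold change there was -0.05, and that of all genes -0.01.

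**Figure D1:**
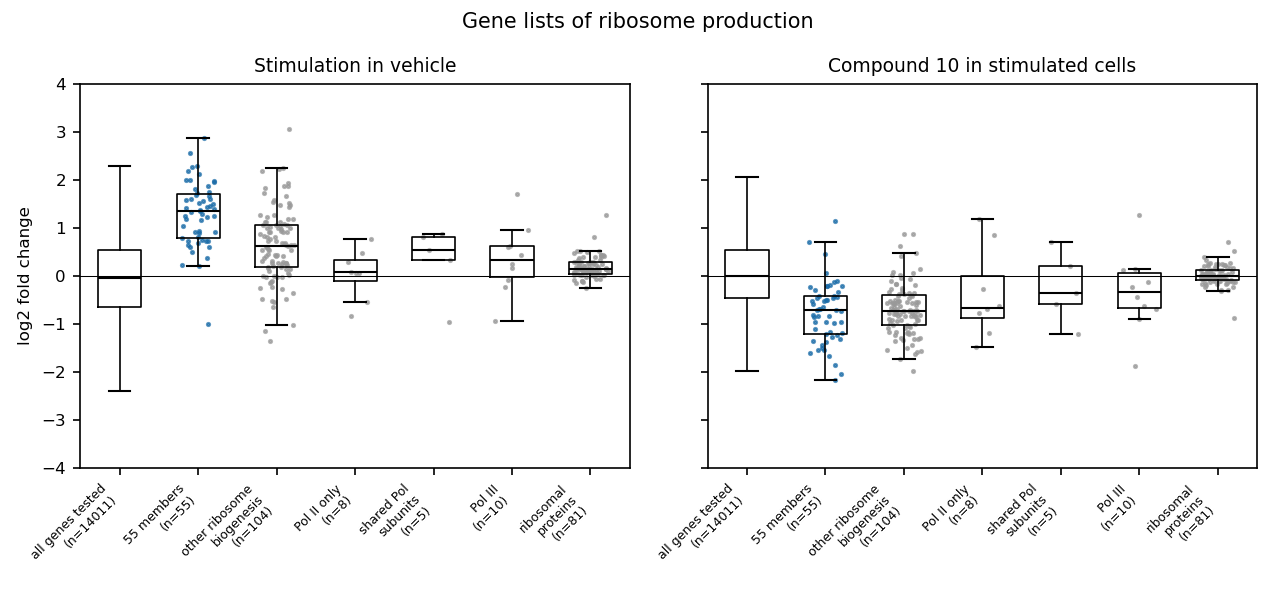
Log2 fold changes with stimulation in vehicle (left) and with compound 10 in stimulated cells (right), 1 point per gene, for the 55 members (blue), other ribosome biogenesis genes, subunits of RNA polymerases, and ribosomal protein genes; boxes give quartiles and medians, whiskers reach at most 1.5 times the box, and genes beyond them are not drawn for all genes tested. The members' median is 1.36 on the left and -0.70 on the right, while that of ribosomal protein genes is 0.16 and 0.01. For the polymerase II subunits it is 0.08 and -0.66.

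RNA polymerase I and its initiation factors were the most divided role. Polr1b (chr2:129100995-129126594) encodes the second largest subunit, which forms the active centre together with the largest. Its level was 6.19 and 7.94 CPM in unstimulated vehicle against 9.94 and 6.75 with compound 10, and after stimulation 24.5 and 30.8 in vehicle against 5.53, 7.03 and 7.42 with compound 10. Only the 2 stimulated vehicle libraries stood high, and the other 7 lay between 5.53 and 9.94 CPM. The log2 fold change was 1.96 (SE 0.27, adjusted p = 0.000218) with stimulation in vehicle, -2.05 (SE 0.24, adjusted p = 0.000143) with compound 10 in stimulated cells, 4.14-fold lower, and 0.24 (SE 0.27) with the compound in unstimulated cells.

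Polr1a (chr6:71909053-71984935), the largest and catalytic subunit, was at 7.06 and 9.23 CPM without and 5.07 and 4.98 with compound 10 in unstimulated cells, and 12 and 14.1 without and 5.77, 6.64 and 4.45 with it in stimulated cells. Polr1e (chr4:45018583-45036565), which encodes the PAF53 subunit that helps the polymerase start, was at 13.5 and 11.7 CPM in unstimulated vehicle against 8.57 and 6.81 with compound 10, and after stimulation 19.2 and 19.1 in vehicle against 7.05, 6.12 and 6.46 with compound 10. For both genes every compound library lay below every vehicle library of the same state. With compound 10 in stimulated cells the change was -1.21 (SE 0.24, adjusted p = 0.00370) for Polr1a and -1.55 (SE 0.20, adjusted p = 0.000265) for Polr1e. In unstimulated cells it was -0.70 (SE 0.27, adjusted p = 0.150) and -0.71 (SE 0.22, adjusted p = 0.0739), which did not pass, and with stimulation in vehicle 0.68 (SE 0.27, adjusted p = 0.0765) and 0.61 (SE 0.22, adjusted p = 0.0544), which did not pass either.

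Polr1c and Polr1d encode the pair of subunits that polymerase I shares with polymerase III. Polr1c (chr17:46243920-46248054) was at 56.6 and 59 CPM without and 66.2 and 65.8 with compound 10 in unstimulated cells, and 208 and 158 without and 115, 117 and 105 with it in stimulated cells. It rose with stimulation in vehicle (1.66, SE 0.19, adjusted p = 5.04e-05) and under compound 10 (0.77, SE 0.17, adjusted p = 0.00662), the latter lost without either unstimulated compound 10 library. It was lower with the compound in stimulated cells (-0.70, SE 0.16, adjusted p = 0.00858), a call lost without stimulated vehicle library 1 (adjusted p = 0.110). Polr1d (chr5:147077050-147111597) was at 136 and 137 CPM in unstimulated vehicle against 163 and 153 with compound 10, and after stimulation 283 and 229 in vehicle against 265, 264 and 278 with compound 10. The stimulated vehicle and compound libraries of Polr1d overlapped, with a difference of 0.07 (SE 0.17, adjusted p = 0.814), while stimulation raised it by 0.91 (SE 0.18) in vehicle and 0.77 (SE 0.17) under the compound, the latter lost without either unstimulated compound 10 library.

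Of the initiation factors, Rrn3 (chr16:13780708-13814839) was at 52.8 and 51.9 CPM without and 61 and 45.5 with compound 10 in unstimulated cells, and 68.5 and 80.8 without and 49.4, 38.8 and 51.4 with it in stimulated cells. The compound libraries lay below vehicle in stimulated cells (-0.68, SE 0.18, adjusted p = 0.0187), a call lost without stimulated vehicle library 2. Ubtf (chr11:102304560-102319742), the gene of the upstream binding factor, was at 27.5 and 28.3 CPM in unstimulated vehicle against 78.6 and 96.1 with compound 10, and after stimulation 34.4 and 30.7 in vehicle against 47.2, 63.8 and 48.9 with compound 10. Its compound libraries lay above the vehicle libraries in both states, by 1.65 (SE 0.20, adjusted p = 0.000863) in unstimulated cells, 3.13-fold, and by 0.71 (SE 0.18, adjusted p = 0.0151) in stimulated cells, the latter lost without stimulated vehicle library 2. Stimulation did not pass for Ubtf in vehicle (0.22, SE 0.20) and lowered it under the compound (-0.71, SE 0.18, adjusted p = 0.0130), a call lost without unstimulated compound 10 library 2 or stimulated compound 10 library 3.

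Taf1b (chr12:24498359-24558539) was at 9.15 and 8.65 CPM without and 7.92 and 7.36 with compound 10 in unstimulated cells, and 4.39 and 4.44 without and 9.62, 11.6 and 7.94 with it in stimulated cells. The 2 stimulated vehicle libraries were the lowest of all 9, and the stimulated compound 10 libraries lay near the unstimulated ones. Taf1b fell by 1.01 on the log2 scale with stimulation in vehicle (SE 0.26, adjusted p = 0.0115), a call lost without unstimulated vehicle library 1 or either stimulated vehicle library. With compound 10 it was higher in stimulated cells (1.14, SE 0.24, adjusted p = 0.00499). Without the vehicle libraries numbered 2, the richest in ribosomal RNA, neither the Ubtf nor the Taf1b call in stimulated cells held. Only library 1 of each vehicle group was then left. The median log2 fold change of the members in stimulated cells was then -0.77, and that of all genes 0.06.

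**Figure D2:**
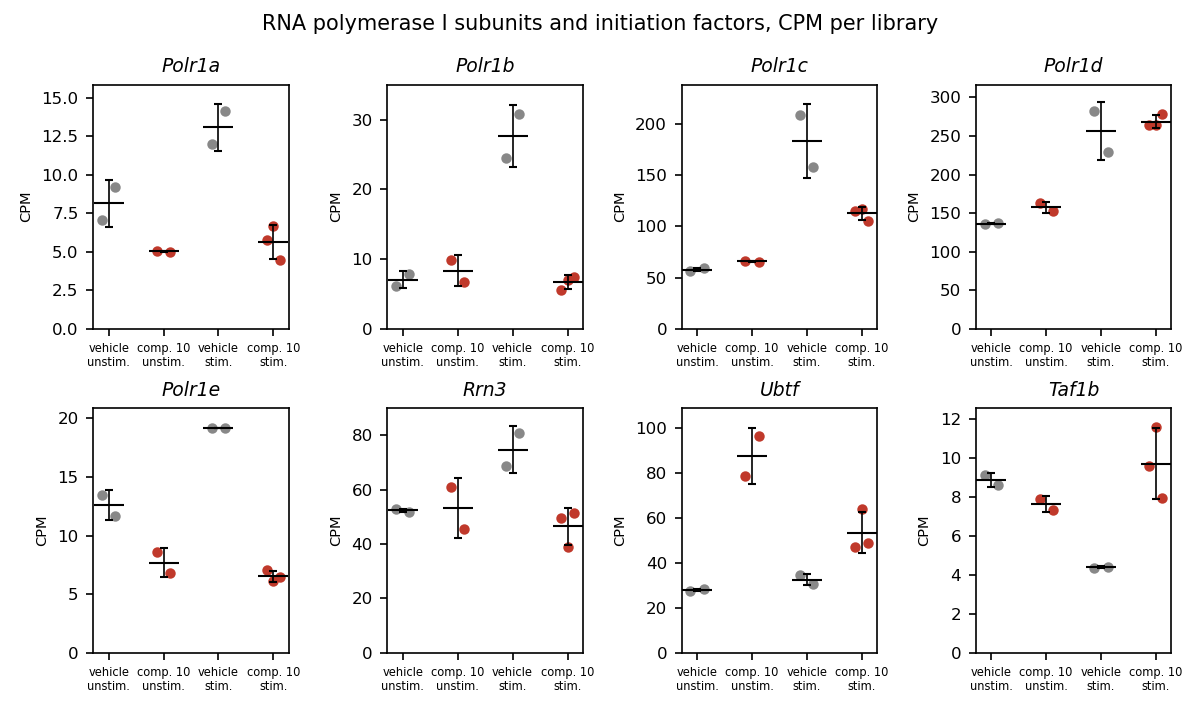
Level of each of the 8 RNA polymerase I genes in CPM (vertical axes from 0) in unstimulated and stimulated libraries, vehicle in grey and compound 10 in red; each point is a library, bars are mean ± SD (n = 2, or 3 for stimulated compound 10). Polr1b is high only in the stimulated vehicle libraries (24.5 and 30.8 CPM), and Ubtf is highest in the unstimulated compound 10 libraries (78.6 and 96.1 CPM).

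All 9 snoRNP genes rose with stimulation in vehicle (median log2 fold change 1.46), and 3 of the 9 were lower with compound 10 in stimulated cells (median -0.49). Fbl (chr7:28169710-28179269) encodes fibrillarin, the methyltransferase of box C/D snoRNPs. It was at 66.7 and 68 CPM in unstimulated vehicle against 64.4 and 69.7 with compound 10, and after stimulation 205 and 166 in vehicle against 74.5, 78.8 and 84.1 with compound 10. The stimulated vehicle libraries stood apart from all others, with changes of 1.46 (SE 0.18, adjusted p = 9.24e-05) with stimulation in vehicle and -1.23 (SE 0.16, adjusted p = 0.000260) with the compound in stimulated cells. Reads of Fbl are hard to assign: a stretch of its transcript recurs nearly unchanged in a transcript of Tulp4, and a processed pseudogene, Gm5812, is 96.9% identical to it over 984 bases. Tulp4 was at 76.8 and 61 CPM in stimulated vehicle against 167, 205 and 183 in stimulated compound 10, the opposite direction to Fbl, and its part in the Fbl values was not tested. Fbl summed with Gm5812 was at 209 and 169 CPM in stimulated vehicle against 76.9, 88.6 and 89.4 in stimulated compound 10.

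Nop58, a core protein of the same box C/D particles, was at 57.8 and 50.8 CPM without and 38.8 and 64.8 with compound 10 in unstimulated cells, and 217 and 216 without and 94.1, 158 and 147 with it in stimulated cells. It rose with stimulation in vehicle (2.00, SE 0.28, adjusted p = 0.000309) and did not pass for the compound in stimulated cells (-0.70, SE 0.25, adjusted p = 0.0575), although the compound libraries lay below vehicle. Nop56, the partner of Nop58, rose by 0.72 (SE 0.21) in vehicle, a call lost without any 1 of the 4 vehicle libraries, and its value for the compound in stimulated cells was -0.45 (SE 0.19, adjusted p = 0.110). Rrp9, the protein that marks the U3 particle, was at 42.3 and 32.1 CPM in unstimulated vehicle against 58.9 and 56.2 with compound 10, and after stimulation 124 and 103 in vehicle against 81.9, 105 and 81.2 with compound 10. The stimulated groups overlapped for Rrp9, and the log2 fold change with the compound was -0.34 (SE 0.18, adjusted p = 0.219) there and 0.63 (SE 0.21, adjusted p = 0.0868) in unstimulated cells, neither passing.

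Among the H/ACA proteins, Dkc1 (chrX:75095854-75109777), the pseudouridine synthase dyskerin, was at 23.1 and 24.1 CPM without and 30.6 and 29.3 with compound 10 in unstimulated cells, and 49.5 and 63.1 without and 34.3, 39.9 and 43.6 with it in stimulated cells. Nhp2, one of its 3 partners, was at 32 and 29 CPM in unstimulated vehicle against 24.6 and 30.4 with compound 10, and after stimulation 142 and 124 in vehicle against 85.5, 104 and 92.4 with compound 10. Both rose with stimulation in vehicle, by 1.25 (SE 0.19) and 2.12 (SE 0.19). With compound 10 in stimulated cells both lay just under the threshold, at -0.52 (SE 0.17, adjusted p = 0.0467) and -0.50 (SE 0.17, adjusted p = 0.0475), and each call was lost under 16 of 21 alternatives, among them leaving out any 1 of several libraries. Nop10, another of the 3 partners, was at 59.5 and 70.6 CPM without and 96.1 and 88.6 with compound 10 in unstimulated cells, and 108 and 121 without and 147, 166 and 158 with it in stimulated cells. Its compound libraries lay above vehicle in both states without passing, at 0.46 (SE 0.16, adjusted p = 0.0594) in stimulated and 0.51 (SE 0.18, adjusted p = 0.105) in unstimulated cells. Gar1, the third partner, had -0.49 (SE 0.25, adjusted p = 0.187) in stimulated cells and did not pass. Nolc1, which chaperones snoRNPs, rose most of this role with stimulation in vehicle (2.27, SE 0.20, adjusted p = 7.43e-06) and did not pass for the compound in stimulated cells (-0.41, SE 0.17, adjusted p = 0.109).

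The small-subunit factors held the member with the largest fall under compound 10. All 19 had a negative log2 fold change in stimulated cells (median -0.74), of which 12 passed, and 18 rose with stimulation in vehicle (median 1.29). Wdr3 (chr3:100138180-100162407) encodes a WD-repeat protein of the UTP-B module of the processome. It was at 17.5 and 18.7 CPM in unstimulated vehicle against 7.86 and 8.19 with compound 10, and after stimulation 32.2 and 27.7 in vehicle against 7.53, 5.73 and 6.63 with compound 10. Every compound 10 library lay below every vehicle library, whatever the state. The change with the compound was -2.18 (SE 0.19, adjusted p = 3.43e-05) in stimulated cells, 4.52-fold lower, and -1.17 (SE 0.21, adjusted p = 0.00830) in unstimulated cells, 2.25-fold lower. The call in unstimulated cells was lost without unstimulated vehicle library 2 or either unstimulated compound 10 library (adjusted p up to 0.465 over the alternatives). With stimulation Wdr3 rose in vehicle (0.73, SE 0.21, adjusted p = 0.0207), a call lost without either unstimulated vehicle library or stimulated vehicle library 1, and did not pass under the compound (-0.28, SE 0.20, adjusted p = 0.375).

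The UTP-A module binds the precursor first, and all 4 of its genes in the list were lower with compound 10 in stimulated cells. Wdr75 (chr1:45795166-45823619) was at 15.4 and 18.3 CPM without and 13.2 and 12.2 with compound 10 in unstimulated cells, and 55.9 and 63.2 without and 22, 19.7 and 21.4 with it in stimulated cells. Heatr1 (chr13:12395027-12440289), its large scaffold protein, was at 9.36 and 9.36 CPM in unstimulated vehicle against 5.39 and 5.09 with compound 10, and after stimulation 15.1 and 20.9 in vehicle against 6.17, 7.62 and 6.81 with compound 10. Both had the stimulated compound libraries below vehicle without overlap, with changes of -1.50 (SE 0.17, adjusted p = 0.000119) and -1.39 (SE 0.22, adjusted p = 0.000798). For Wdr43 the change was -1.16 (SE 0.18, adjusted p = 0.000833) and for Utp15 -0.84 (SE 0.18, adjusted p = 0.00552), the latter lost without stimulated vehicle library 1. In unstimulated cells the log2 fold changes of these 4 genes were -0.41 (SE 0.19), -0.84 (SE 0.25), -0.32 (SE 0.20) and -0.64 (SE 0.20) in the same order, none passing. The compound libraries lay below vehicle there for all 4, which holds for 27.3% of all genes. Utp18, which like Wdr3 belongs to UTP-B, changed by -0.81 (SE 0.16, adjusted p = 0.00361) in stimulated cells.

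Noc4l and Nop14 encode proteins that bind each other in the processome. Noc4l (chr5:110648418-110653417) was at 40.5 and 35.7 CPM without and 29.7 and 25.4 with compound 10 in unstimulated cells, and 95.8 and 90.8 without and 32.6, 28.4 and 27.1 with it in stimulated cells. The stimulated compound libraries lay below even the unstimulated vehicle libraries, with a change of -1.67 (SE 0.16, adjusted p = 5.71e-05) against stimulated vehicle. Nop14 did not pass (-0.23, SE 0.15, adjusted p = 0.314), and the difference between these 2 genes was not tested. Imp3 and Imp4, which hold the U3 snoRNA on the precursor, rose with stimulation in vehicle by 0.76 (SE 0.24) and 1.22 (SE 0.21), the Imp3 call being lost without unstimulated vehicle library 1 or either stimulated vehicle library. They did not pass for the compound in stimulated cells, at -0.20 (SE 0.22) and -0.13 (SE 0.19). Rcl1, a processome protein needed for cutting the precursor, was lower (-0.69, SE 0.20, adjusted p = 0.0241), a call lost without stimulated vehicle library 1 or stimulated compound 10 library 3. Nat10, the enzyme that acetylates 18S rRNA, did not pass (-0.20, SE 0.24, adjusted p = 0.604), nor did Utp20 (-0.74, SE 0.29, adjusted p = 0.0892) or the helicase gene Ddx10 (-0.42, SE 0.19, adjusted p = 0.128).

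Bysl (chr17:47599331-47611492), which encodes bystin, a protein of the pre-40S particle, was at 21.7 and 15.2 CPM in unstimulated vehicle against 14 and 15.4 with compound 10, and after stimulation 72.5 and 63 in vehicle against 21, 17.9 and 17.5 with compound 10. Stimulated vehicle stood apart from the other 7 libraries, with changes of 1.88 (SE 0.22, adjusted p = 6.17e-05) with stimulation in vehicle and -1.85 (SE 0.19, adjusted p = 8.02e-05) with the compound in stimulated cells. Bysl overlaps Ccnd3 on the opposite strand by 361 bases, 9.37% of its exonic length, and whether the counting used strand is not stated in the sources used here. Ccnd3 was at 160.2 and 102 CPM in stimulated vehicle against 292, 298 and 299.8 in stimulated compound 10, the opposite direction to Bysl.

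Rrp12, which helps export both subunits, changed by -1.32 (SE 0.20, adjusted p = 0.000588) with compound 10 in stimulated cells. Nob1, the nuclease that makes the final cut of 18S rRNA, changed by -0.59 (SE 0.17, adjusted p = 0.0232), and Ltv1, a factor that leaves the particle before that cut, by -0.66 (SE 0.22, adjusted p = 0.0473). The Nob1 call was lost under 6 of 21 alternatives and that of Ltv1 under 13, single libraries among them in each case. Tsr1, a GTPase-like factor that holds the late pre-40S particle inactive, rose most of the small-subunit role with stimulation in vehicle (2.30, SE 0.24, adjusted p = 2.70e-05) and did not pass for the compound (-0.52, SE 0.20, adjusted p = 0.0847).

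**Figure D3:**
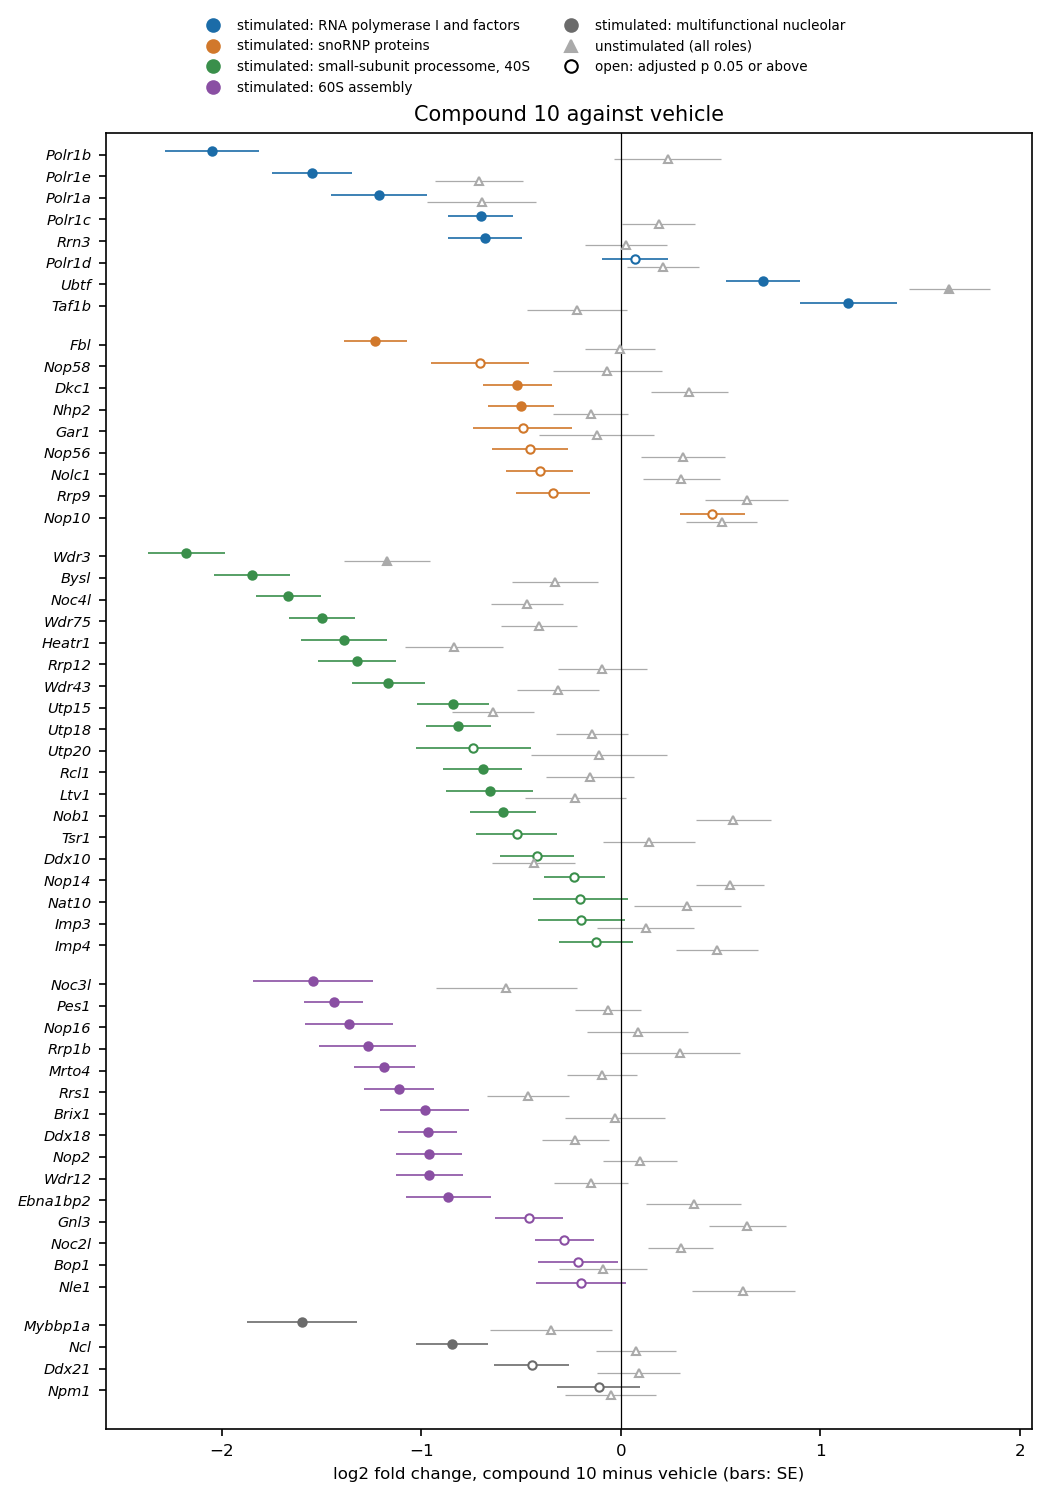
Log2 fold change of each of the 55 members with compound 10 against vehicle (horizontal axis, bars are 1 SE) in stimulated cells (circles, coloured by role) and unstimulated cells (grey triangles); filled symbols have an adjusted p under 0.05. Filled circles run from -2.18 (Wdr3) to 1.14 (Taf1b), and only Ubtf and Wdr3 have a filled triangle.

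Of the 15 genes of 60S assembly 11 were lower with compound 10 in stimulated cells (median -0.97), and 14 rose with stimulation in vehicle (median 1.53). Pes1, Bop1 and Wdr12 encode the 3 proteins of the PeBoW complex, which is needed to process the RNAs of the 60S subunit. Pes1 (chr11:3963975-3980004) was at 38.5 and 38.6 CPM without and 35.8 and 37.9 with compound 10 in unstimulated cells, and 73.2 and 73.1 without and 25.9, 28.6 and 26.4 with it in stimulated cells. The stimulated compound 10 libraries were the lowest of all 9, and the change against stimulated vehicle was -1.44 (SE 0.15, adjusted p = 8.04e-05). Wdr12 changed by -0.96 (SE 0.17, adjusted p = 0.00160) in the same comparison. Bop1 did not pass in any comparison, with 0.21 (SE 0.22, adjusted p = 0.532) for stimulation in vehicle and -0.21 (SE 0.20, adjusted p = 0.508) for the compound, and the difference between the 3 genes was not tested.

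Mrto4 (chr4:139347435-139352576), whose protein holds the place of the ribosomal stalk on the pre-60S particle, was at 16.6 and 15.7 CPM in unstimulated vehicle against 14.7 and 15.6 with compound 10, and after stimulation 60.7 and 66.4 in vehicle against 27.7, 27.4 and 28.6 with compound 10. Rrs1 (chr1:9545408-9547455), which brings the 5S RNA particle into the precursor, was at 17.1 and 17.6 CPM without and 11.2 and 13.9 with compound 10 in unstimulated cells, and 81.3 and 78.7 without and 36.9, 42.9 and 31 with it in stimulated cells. Ddx18 (chr1:121553835-121567989), an RNA helicase, was at 40.3 and 43.1 CPM in unstimulated vehicle against 37.9 and 33.2 with compound 10, and after stimulation 99.4 and 98.9 in vehicle against 53.8, 49.2 and 49.1 with compound 10. These 3 genes shared 1 order: the stimulated compound 10 libraries lay between the unstimulated ones and stimulated vehicle, with no overlap. With compound 10 in stimulated cells they changed by -1.19 (SE 0.15, adjusted p = 0.000268), -1.11 (SE 0.18, adjusted p = 0.000899) and -0.97 (SE 0.15, adjusted p = 0.000765).

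Noc3l, a partner of Noc2l on early pre-60S particles, changed by -1.54 (SE 0.30, adjusted p = 0.00310) with compound 10 in stimulated cells, and Noc2l did not pass (-0.28, SE 0.15, adjusted p = 0.195). Nop16, a nucleolar factor of early pre-60S particles, changed by -1.36 (SE 0.22, adjusted p = 0.00106), and Rrp1b, which rose most of all members with stimulation in vehicle (2.88, SE 0.30, adjusted p = 2.73e-05), by -1.27 (SE 0.24, adjusted p = 0.00289). Nop2, a methyltransferase of 28S rRNA, changed by -0.96 (SE 0.16, adjusted p = 0.00134), and the early assembly factor Brix1 by -0.98 (SE 0.22, adjusted p = 0.00748). Ebna1bp2, another early factor, changed by -0.87 (SE 0.21, adjusted p = 0.0111). The Brix1 call was lost without stimulated vehicle library 1, and that of Ebna1bp2 without either stimulated vehicle library.

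Gnl3 (chr14:31012433-31019152), the gene of the nucleolar GTPase nucleostemin, was at 22.9 and 27.9 CPM without and 43.4 and 35.5 with compound 10 in unstimulated cells, and 143 and 157 without and 109, 97.9 and 121 with it in stimulated cells. Nle1, a factor that binds the ATPase midasin on the pre-60S particle, was at 6.77 and 4.19 CPM in unstimulated vehicle against 8.96 and 7.80 with compound 10, and after stimulation 13.1 and 15 in vehicle against 12, 13 and 11.8 with compound 10. For both the compound libraries lay above vehicle in unstimulated cells and below it in stimulated cells, none of these differences passing. The log2 fold changes were 0.63 (SE 0.19, adjusted p = 0.0685) and -0.46 (SE 0.17, adjusted p = 0.0706) for Gnl3 and 0.61 (SE 0.26, adjusted p = 0.181) and -0.20 (SE 0.23, adjusted p = 0.593) for Nle1.

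The 4 multifunctional nucleolar proteins included the most abundant member per length. Npm1 (chr11:33152287-33163206), nucleophosmin, a chaperone of the nucleolus, was at 2217 and 2050.4 CPM without and 2274 and 1844 with compound 10 in unstimulated cells, and 3577 and 2892 without and 2941, 2837 and 3209 with it in stimulated cells. Its stimulated groups overlapped, with -0.11 (SE 0.21, adjusted p = 0.761) for the compound and 0.60 (SE 0.23, adjusted p = 0.0698) for stimulation in vehicle, neither passing. Ncl (chr1:86344719-86359400), nucleolin, was at 398 and 451 CPM in unstimulated vehicle against 417 and 478 with compound 10, and after stimulation 1229.9 and 1374 in vehicle against 688, 773 and 714 with compound 10. Its compound libraries lay below vehicle in stimulated cells (-0.84, SE 0.18, adjusted p = 0.00537) and above the unstimulated libraries. Per length, mean TPM in unstimulated vehicle was 2022 for Npm1 and 132 for Ncl, against a median of 14.8 over the 55 members and 0.329 for the lowest, Utp20.

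Mybbp1a (chr11:72441355-72451768), a nucleolar protein that binds polymerase I, was at 27 and 38.6 CPM without and 29.9 and 21.6 with compound 10 in unstimulated cells, and 57.2 and 78.5 without and 29.3, 15.2 and 22.8 with it in stimulated cells. Stimulated compound 10 overlapped both unstimulated groups and lay below stimulated vehicle (-1.60, SE 0.27, adjusted p = 0.00169). Ddx21 (chr10:62580251-62602281), a helicase that links polymerase I transcription to rRNA processing, was at 53.6 and 74.3 CPM in unstimulated vehicle against 72.3 and 63.8 with compound 10, and after stimulation 204 and 225 in vehicle against 181, 140.5 and 150.1 with compound 10. It rose with stimulation in vehicle (1.75, SE 0.21, adjusted p = 9.58e-05) and under the compound (1.21, SE 0.20, adjusted p = 0.0010), and the compound libraries lay below vehicle in stimulated cells without passing (-0.45, SE 0.19, adjusted p = 0.110).

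The next comparison sets stimulated against unstimulated cells within compound 10, to give the response that the members had with the inhibitor present. Of the 55 members 23 rose and 2 fell, Ubtf and Pes1, against 11% and 10.8% of all genes (21.8% in all), and the median log2 fold change was 0.51 against 0.00 for all genes. All 3 stimulated libraries lay above both unstimulated ones for 36 members and below both for 3, against 24.2% and 25.4% of all genes. By role 6 of 9 snoRNP genes, 8 of 19 small-subunit genes, 5 of 15 large-subunit genes, 2 of 4 nucleolar genes and 2 of 8 polymerase I genes rose. Nhp2 (1.77, SE 0.18, adjusted p = 3.49e-05), Tsr1 (1.64, SE 0.22, adjusted p = 0.000255), Nolc1 (1.56, SE 0.18, adjusted p = 9.71e-05), Rrs1 (1.56, SE 0.19, adjusted p = 0.000144) and Gnl3 (1.47, SE 0.18, adjusted p = 0.000144) rose most. Pes1 passed only narrowly (-0.45, SE 0.15, adjusted p = 0.0497) and lost its call under 19 of 21 alternatives. The count rested on both unstimulated compound 10 libraries. Without either, which left 1 library in that group, fewer genes passed, among the members and over all genes. The member median was then 0.51 without library 1 and 0.45 without library 2, and that of all genes 0.02 and 0.03.

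In vehicle and under the compound, 2 comparisons with no library in common, stimulation changes of the 55 members had a Pearson correlation of 0.66, against 0.65 over all genes tested. For compound 10 in unstimulated and stimulated cells, which also share no library, it was 0.60 over the members and 0.41 over all genes. These correlations are across genes, which are not independent replicates, and describe these libraries only.

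**Figure D4:**
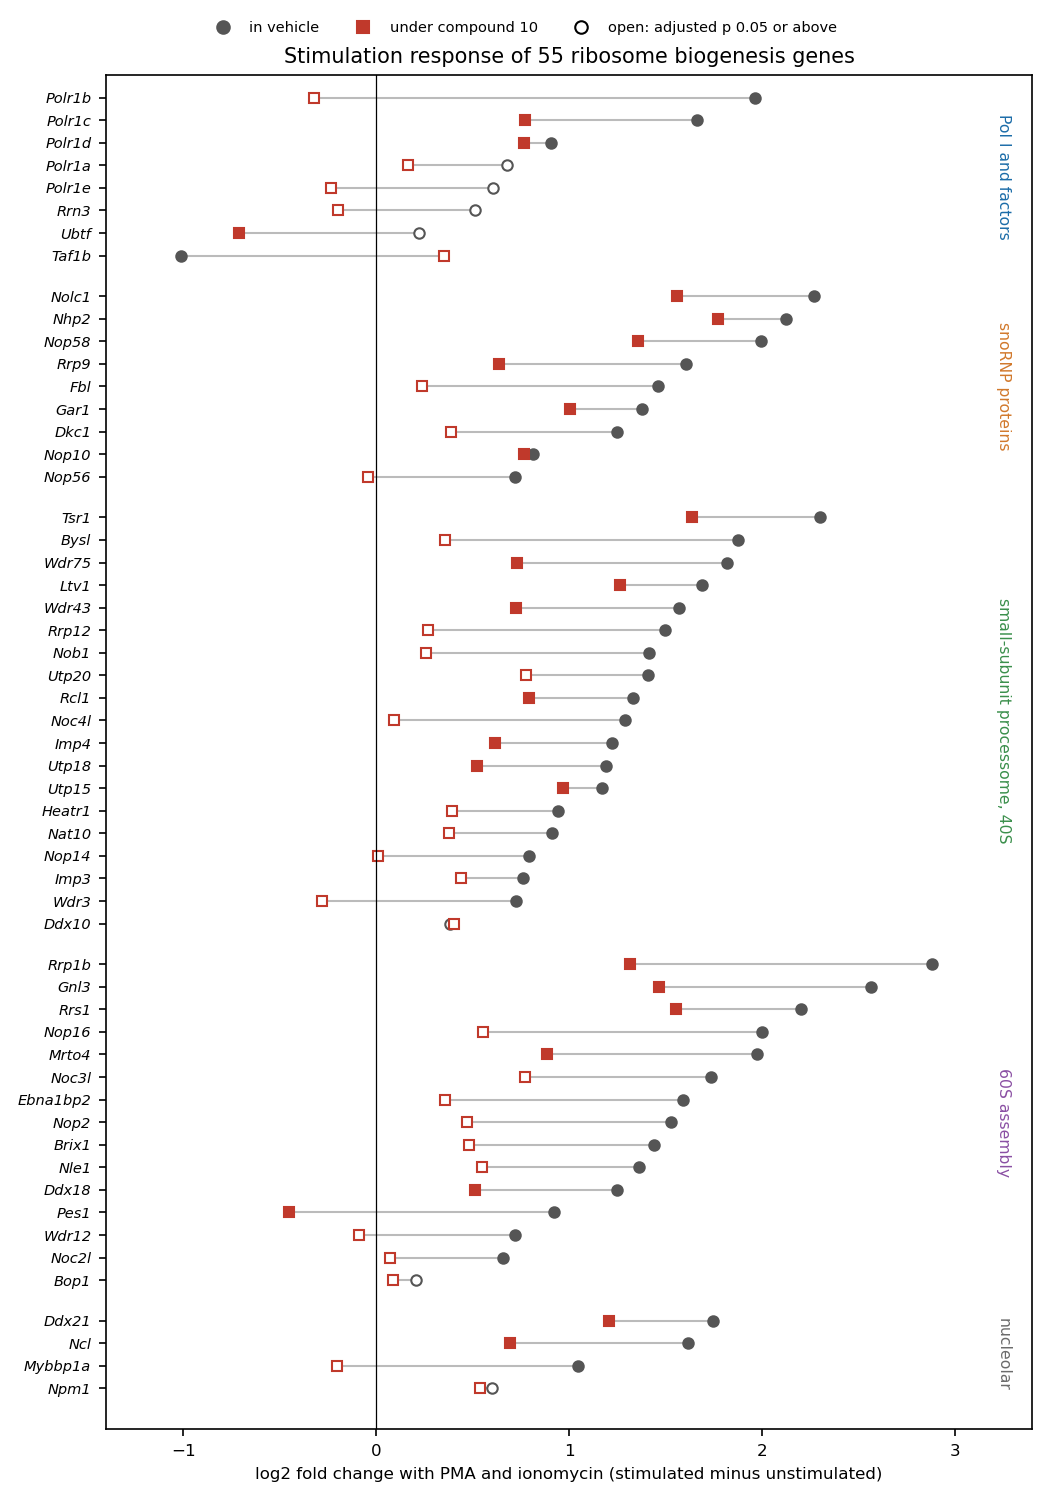
Log2 fold change with PMA and ionomycin for each of the 55 members (horizontal axis), in vehicle (grey circles) and under compound 10 (red squares), joined by a line and ordered by role; filled symbols have an adjusted p under 0.05. Members lie at 0.21 to 2.88 in vehicle, with the exception of Taf1b at -1.01, and at -0.71 to 1.77 under compound 10.

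Whether the stimulation response itself differed with the compound was tested by the interaction of stimulation and compound. A smaller response under compound 10 was found for 6 members, Polr1b, Pes1, Bysl, Fbl, Noc4l and Mrto4, and a larger one for 0, against 0.607% and 0.421% of all genes (1.03% in all). The median interaction of the members was -0.78 and that of all genes 0.01. It was -2.29 (SE 0.36, adjusted p = 0.0139) for Polr1b, -1.37 (SE 0.22, adjusted p = 0.0150) for Pes1, -1.52 (SE 0.29, adjusted p = 0.0302) for Bysl, -1.22 (SE 0.24, adjusted p = 0.0334) for Fbl, -1.20 (SE 0.24, adjusted p = 0.0400) for Noc4l and -1.09 (SE 0.23, adjusted p = 0.0499) for Mrto4. Taf1b had the only interaction above 1 (1.36, SE 0.35, adjusted p = 0.0921), which did not pass. Over all genes the interaction gave 59 higher and 85 lower. With DESeq2 these were 149 and 225, and with the replicate number as a block 20 and 23. The member count was unstable: it was 16 with DESeq2 and 0 with that block. It was 13 without stimulated compound 10 library 2, 4 without library 1 of that group and 1 without library 3. Over all genes these fits gave 101 higher and 163 lower, 47 and 64, and 23 and 25. Without any 1 library of the other groups, which leaves 1 library in that group, fewer members passed. The member median was then -0.84 to -0.74, and that of all genes -0.02 to 0.06.

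**Figure D5:**
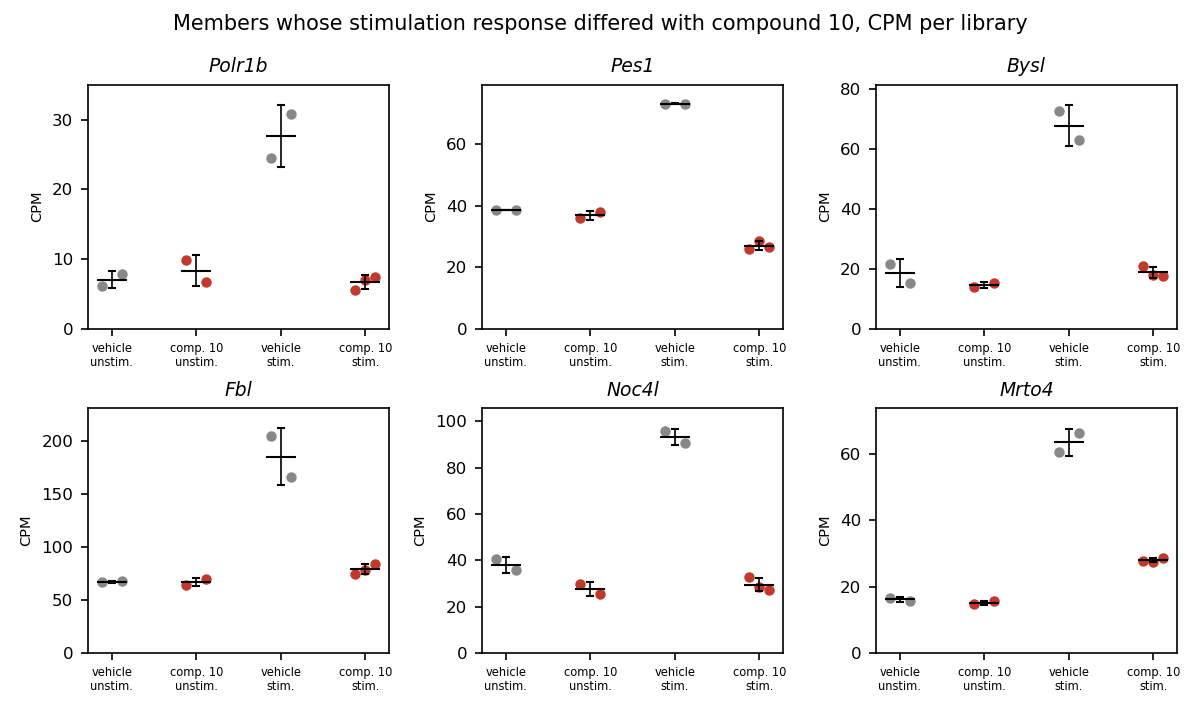
Level in CPM (vertical axes from 0) of the 6 members whose stimulation response differed between compound 10 and vehicle; each point is a library, vehicle in grey and compound 10 in red, and bars are mean ± SD (n = 2, or 3 for stimulated compound 10). In all 6 panels the 2 stimulated vehicle libraries stand above the other 7; for Pes1, for example, they are at 73.2 and 73.1 CPM.

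The rest of the ribosome production machinery was read from lists that hold no member. Of 104 other ribosome biogenesis genes, all tested, 66 were lower with compound 10 in stimulated cells and 3 higher (median log2 fold change -0.73), against 11.4% and 11.7% of all genes. With stimulation in vehicle 53 rose and 3 fell (median 0.63), against 14.4% and 13.8% of all genes. For compound 10 in stimulated cells, the 5 with the smallest p included Utp23 (-1.98, SE 0.17), a factor of early rRNA cutting. The others were the pre-60S GTPase gene Gnl2 (-1.59, SE 0.18) and the 18S rRNA methyltransferase gene Dimt1 (-1.62, SE 0.18), with the 60S factor Rsl24d1 (-1.19, SE 0.14) and the rRNA methyltransferase gene Ftsj3 (-1.29, SE 0.16). The 3 higher in that comparison were Sbds (0.63, SE 0.20), Nsa2 (0.89, SE 0.26) and Nop53 (0.87, SE 0.19), all of 60S maturation. In unstimulated cells 7 of the 104 were lower and 0 higher, against 2.91% and 4.45% of all genes.

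These small lists are read against the 11.4% of all genes that were lower and 11.7% higher. Of 8 polymerase II subunits not shared with polymerase I, 4 were lower and 1, Polr2g, higher with compound 10 in stimulated cells. Their median log2 fold change was -0.66, near the -0.70 of the members. Of the 5 subunits that all 3 polymerases share, Polr2f (-1.21, SE 0.27) and Polr2k (-0.58, SE 0.18) were lower and Polr2h (0.71, SE 0.16) higher. Of 10 polymerase III genes, Polr3a (-1.89, SE 0.30) and Polr3f (-0.91, SE 0.21) were lower and Polr3gl (1.27, SE 0.35) higher, 20% and 10% of the list. The median was -0.35 for the shared subunits and -0.34 for the polymerase III genes. The genes of the ribosomal proteins themselves, 81 of 85 tested, held 1 lower and 0 higher, with a median of 0.01. With stimulation in vehicle 3 of them rose, 3.70% (median 0.16), against 14.4% of all genes.

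The same genes were read a further way, through the share of their counts on transcripts annotated as retained intron, nonsense-mediated decay or processed transcript, forms without the full coding sequence. Of the 28 members with a mean share of at least 1% over all libraries, the 3 stimulated compound 10 libraries lay above both stimulated vehicle libraries for 9 and below both for 0, against 12.9% and 11.2% of the 6134 genes with such a share. The 9 were Polr1e, Gar1, Wdr75, Imp4, Nob1, Tsr1, Nop16, Ebna1bp2 and Ddx18. With stimulation in vehicle 10 members had a higher and 1 a lower share (21.7% and 16.3% of genes), and with compound 10 in unstimulated cells also 10 and 1 (20.2% and 15.6%). Wdr75, for example, had 1.96 and 5.19% in stimulated vehicle against 16.1, 11.6 and 11.1% in stimulated compound 10. Its share varied widely between replicates, at 1.30 and 11.5% in unstimulated vehicle and 9.13 and 12.4% in unstimulated compound 10. Imp4 had 47.9 and 45.8% in stimulated vehicle against 51.6, 54.8 and 52.3% in stimulated compound 10. Nat10 had 48.7 and 36.9% in unstimulated and 67.2 and 73.8% in stimulated vehicle. Counted on protein-coding transcripts alone, the rise of Nat10 with stimulation was absent (log2 fold change -0.00465, adjusted p = 0.994).

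Summed over all members the share was 14.2% and 16.6% in stimulated vehicle against 12.1%, 14.1% and 12.3% in stimulated compound 10. Most of it came from Ncl, of which 85.1 and 82.9% of counts in stimulated vehicle lay on such forms, chiefly the retained-intron transcript Ncl-202. Without Ncl the shares were 3.88% and 4.57% against 3.88%, 4.92% and 4.24%, which overlapped. With stimulation under compound 10, 11 members had a higher and 2 a lower share, against 14.2% and 11.2% of genes. Such shares are kallisto's division of reads between transcripts that largely coincide, and no test was made of them.

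Myc, whose protein is known to drive ribosome production, was at 11.2 and 14.6 CPM without and 16.8 and 13.1 with compound 10 in unstimulated cells, and 1459.6 and 1232 without and 781, 1132 and 949 with it in stimulated cells. Stimulated libraries stood far above unstimulated ones in both vehicle (6.70, SE 0.31, adjusted p = 9.81e-08) and compound 10 (6.00, SE 0.30, adjusted p = 1.32e-07). The stimulated compound libraries lay below both vehicle libraries, with a change of -0.50 (SE 0.22, adjusted p = 0.126) that did not pass, and the interaction was -0.70 (SE 0.34, adjusted p = 0.370).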

How the data were processed

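RNA-seq was available for 9 libraries in 4 groups (2, 2, 2 and 3). RNA was extracted with a Qiagen kit and SMART-seq chemistry of Clontech gave the libraries, per the labels' protocols. Adapters were trimmed with cutadapt and reads quantified by kallisto with the mm10 build, per the submitters' processing notes; for versions, transcript annotation and strand setting: not given in the sources used here. Per the file headers, the authors deposited for each transcript an estimated count, a TPM value (abundance corrected for length) and an effective length.

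Transcripts were matched to GENCODE M21 without their version number (108214 of 109617; 63964 with it), which left 0.542% to 0.829% of counts unmatched. Estimated counts were summed per gene and rounded. edgeR 4.0.16 in R 4.3.3 was used: filterByExpr left 14011 genes, libraries were scaled by TMM, and 1 quasi-likelihood model with the 4 groups gave all 5 contrasts, with Benjamini-Hochberg adjustment over all genes tested and calls at an adjusted p under 0.05. The SE of a log2 fold change is its size divided by the square root of the F statistic. The biological coefficient of variation was 0.244. Alternatives used DESeq2 1.42.0, limma 3.58.1 on log2(TPM + 1), other scalings and filters, protein-coding transcripts only, effective length offsets, ribosomal RNA left out, a replicate block, 2 groups at a time, and each library left out. The scripts were tested on 5 simulated data sets, each with 200 genes changed by compound 10 in stimulated cells. Of the changes of 2-fold 21.6% were recovered, and of those of 4-fold 67.6%. No other gene differed between the stimulated groups in these simulations, whereas 23.1% of all genes passed in the data. The adjusted p depends on that share, so these percentages do not give the sensitivity of the comparison reported. Similar transcripts were found with blastn 2.17.0.

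The 55 members and all other lists were chosen with earlier results of these data known. Values of every library are given for all polymerase I genes, for the members of each other role with the smallest p for compound 10 (4 in stimulated and 2 in unstimulated cells), and for members whose interaction passed. Of the other ribosome biogenesis genes, the 5 with the smallest p for compound 10 in stimulated cells, and those passing in the opposite direction there, are named. Libraries held 10669821 to 21852830 estimated counts.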

Additional observations from a re-analysis of the deposited data

Results flagged for a closer look

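For 6 members the stimulation response itself differed between compound 10 and vehicle by the interaction term, with an adjusted p under 0.05 in edgeR's quasi-likelihood test. The interaction, the log2 response under compound 10 minus that in vehicle, was -2.29 for Polr1b, -1.37 for Pes1, -1.52 for Bysl, -1.22 for Fbl, -1.20 for Noc4l and -1.09 for Mrto4. In each the 2 stimulated vehicle libraries lay above the other 7 libraries. None of the 6 calls held under every alternative: that of Polr1b was lost under 6 of 20, those of Pes1 and Bysl under 10, Noc4l under 11, Fbl under 12 and Mrto4 under 14. Reads shared between Fbl and Tulp4, and between Bysl and Ccnd3 on the opposite strand, are described with those genes, and their part was not tested.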

How the results depend on the processing

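Of the calls among the members, 26 of 48 for stimulation in vehicle, 18 of 35 for compound 10 in stimulated cells, 1 of 2 in unstimulated cells (Ubtf), 6 of 25 for stimulation under compound 10 and 0 of 6 for the interaction held under every alternative run. With limma on log2(TPM + 1) the 5 counts were 30, 19, 1, 8 and 0. Over all genes limma called 978 higher and 1672 lower for stimulation in vehicle, against 2011 and 1929 in the main fit. For compound 10 in stimulated cells limma called 557 and 638 of all genes, against 1639 and 1595. The all-gene median with that method was -0.17 for stimulation in vehicle and -0.21 under compound 10, against -0.05 and 0.00, and with upper-quartile scaling that of the interaction was 0.12 against 0.01. With effective length offsets 1 member was called for compound 10 in unstimulated cells and 2 for the interaction. Over all genes these offsets gave 451 higher and 306 lower in unstimulated cells, against 623 and 408 in the main fit. For the interaction they gave 43 and 41. The interaction count was 15 with no filter on low counts and 16 with DESeq2. Over all genes the interaction calls moved as well. They were 59 higher and 85 lower in the main fit, 219 and 293 with no filter, and 149 and 225 with DESeq2. An alternative chosen after seeing the data left out the vehicle libraries numbered 2, and so kept only library 1 of each vehicle group. The member medians were then 1.24 for stimulation in vehicle, -0.77 and -0.06 for compound 10 in stimulated and unstimulated cells, and -0.72 for the interaction. In the main fit they were 1.36, -0.70, -0.05 and -0.78. Leaving out 1 library at a time gave 37 to 52 members for stimulation in vehicle, 27 to 37 for compound 10 in stimulated cells, 1 to 5 in unstimulated cells, 10 to 23 for stimulation under compound 10 and 0 to 13 for the interaction. Counted on protein-coding transcripts only, the stimulation value of Nat10 in vehicle turned from a rise to -0.00465. CACGTG was in 3 member promoters, not 11, when only the 100 bases before the start were read: 6% of them against 5.61% of the promoters of genes tested. The cause of these shifts was not tested, beyond the fewer libraries or shorter window that some alternatives have by construction.

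With the replicate number as a block the counts were 47, 32, 2, 21 and 0. Same-numbered libraries of different groups had deviations correlated at -0.113 to 0.385, not over 0.1 in every pair, so the numbers were not taken to pair the samples. Among the unstimulated groups alone, the block as numbered gave 2 members and the crossed pairing, chosen after seeing the data, 7. Over all genes the block as numbered gave 616 higher and 384 lower, and the crossed pairing 1095 and 790.

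Groups of 2 and 3 libraries limit what can be told apart: a member that did not pass is not shown to be the same in both groups. Counts are estimates by kallisto, so genes with near-identical copies or overlapping neighbours carry an error beyond the replicate spread. CPM is a share of the RNA, and a change of total RNA per cell would not be seen.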

Other observations

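Values of single transcripts were looked at for 2 polymerase I genes, chosen after their values were seen. Polr1d, whose gene total overlapped between stimulated vehicle and compound 10, has 2 main protein-coding transcripts. Polr1d-201 was at 65.5 and 72.8 CPM in unstimulated vehicle against 108 and 105 in unstimulated compound 10, while Polr1d-202 was at 69.6 and 59.4 against 54.1 and 43.6, so the 2 transcripts lay on opposite sides of vehicle without overlap. With stimulation Polr1d-201 reached 204 and 167 CPM in vehicle and 196 to 209.9 with the compound, whereas Polr1d-202 was at 75.2 and 59.5 against 68.2, 62.3 and 67.6.

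Among the transcripts of Ubtf, Ubtf-205 was at 10.3 and 15.4 CPM in unstimulated vehicle against 41.6 and 36.9 in unstimulated compound 10, and after stimulation at 13.9 and 11.8 against 29.2, 20.9 and 24.7. Ubtf-201 was at 0.742 and 0 against 11.2 and 22 CPM in unstimulated cells, and 1.36 and 1.20 against 8.83, 15.2 and 6.52 in stimulated cells. For both transcripts every compound library lay above every vehicle library of the same state, which also held for Ubtf-209. For Ubtf-204 and Ubtf-206 it held in unstimulated cells only. The compound and vehicle libraries of Ubtf-210 and Ubtf-202 overlapped in both states. These are estimates that divide reads between similar transcripts, and no test was made of them.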
